A study of Mus musculus with 12 samples.

Results

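The effect of losing both myocardin-related transcription factors was examined in adult mouse cardiomyocytes as the genotype difference shared by hearts with and without pressure overload. All 12 libraries of the series entered this comparison, 6 from double-knockout (dKO) mice and 6 from control mice, with 3 libraries in each of 4 groups. The groups were control after sham surgery, control after trans-aortic constriction (TAC, a surgical narrowing of the aorta that raises the load on the left ventricle), dKO after sham and dKO after TAC. Genes were assigned to the shared effect by the genotype term of a model with genotype plus surgery, fitted to raw counts of all genes. Control mice carried 1 alphaMHC-MerCreMre allele, and dKO mice were labelled MHC-MerCreMre/+; Mrtf-a-/-; Mrtf-bflox/flox. All mice were male. Tamoxifen was given at 8 weeks of age, once a day for 3 days at 30 ug/g, and hearts were taken at 11 weeks, 7 days after surgery. The treatment protocol places surgery at 10 weeks and the design text at 8 weeks. Every group therefore shared the tamoxifen-activated Cre transgene, whose myosin heavy chain promoter is active in cardiomyocytes. In the dKO the Mrtf-a allele was absent from all cells of the animal, whereas Mrtf-b could be removed only where Cre was active. The labels cite 2 further strain sources for the dKO alleles and none of these for the controls, so differences linked to the alleles' strain backgrounds and the loss of the factors cannot be told apart.

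MRTF-A and MRTF-B, encoded by Mkl1 and Mkl2, are coactivators of serum response factor (SRF). They bind monomeric actin in the cytoplasm, enter the nucleus when actin polymerises, and then activate SRF target genes, many of which encode actins and actin-binding proteins. SRF binds the CArG box, a short A- and T-rich element found near the start of many muscle and cytoskeletal genes. In heart muscle the SRF program includes the skeletal, smooth muscle and cardiac alpha actins, whose levels change with load.

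Library totals lay between 20082000 and 29675212 counts, and 14712 of 49568 listed genes passed the filter on low counts. Levels are given as CPM, counts relative to the TMM-scaled library total. A level of 3 counts corresponds to 0.0935 to 0.184 CPM, and that limit covers counting error only. dKO sham 1 and dKO TAC 2 stood apart from the rest, with 16.51% and 15.32% of counts on mitochondrially encoded genes against 23.16% to 32.57% in the other 10 libraries, and with a shift related to transcript length. The labelled cell type was supported by its markers: 15 of 15 cardiomyocyte markers were detected, with a sum of 56100 to 167000.0 CPM per library. Marker lists of fibroblasts (1140 to 4790 CPM), endothelial cells (2750 to 4720 CPM) and macrophages (186 to 845 CPM) were also present in every group. In such samples fewer cells of a type and less RNA per cell cannot be told apart. The sources used here do not say whether replicates were separate animals, so p-values measure the spread between these libraries.

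The sequences that bear on this comparison are the stretches just upstream of the start of actin and cytoskeletal genes of the SRF program. The 120 bases upstream of the RefSeq start (GRCm38.p6) are shown 5′ to 3′ for the strand of the gene, in lower case with each CArG box in capitals. They are given for the actin gene with the lowest genotype term (Acta1), for 3 related actin genes, for calponin 2 (Cnn2) and for Srf itself.
Acta1, chr8:123894776-123894895, minus strand: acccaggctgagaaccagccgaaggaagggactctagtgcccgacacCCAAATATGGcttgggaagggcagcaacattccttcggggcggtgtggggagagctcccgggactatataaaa
Actc1, chr2:114052876-114052995, minus strand: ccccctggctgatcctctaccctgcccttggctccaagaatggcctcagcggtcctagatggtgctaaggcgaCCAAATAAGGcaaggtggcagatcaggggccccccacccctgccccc
Actg1, chr11:120348496-120348615, minus strand: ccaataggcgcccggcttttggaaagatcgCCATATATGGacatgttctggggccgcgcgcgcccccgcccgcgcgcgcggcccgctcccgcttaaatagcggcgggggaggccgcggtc
Acta2, chr19:34255374-34255493, minus strand: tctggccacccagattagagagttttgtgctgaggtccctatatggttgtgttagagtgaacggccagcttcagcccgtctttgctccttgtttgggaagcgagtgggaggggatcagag
Cnn2, chr10:79988480-79988599, plus strand: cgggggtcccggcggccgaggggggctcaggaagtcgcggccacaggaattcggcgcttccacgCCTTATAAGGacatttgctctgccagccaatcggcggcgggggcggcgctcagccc
Srf, chr17:46556163-46556282, minus strand: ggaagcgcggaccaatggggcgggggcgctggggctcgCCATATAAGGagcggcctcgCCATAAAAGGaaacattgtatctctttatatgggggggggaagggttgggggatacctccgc

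The CArG box was searched on both strands as CC, 6 bases that are each A or T, and GG. The stretch of Srf holds 2 boxes, those of Acta1, Actc1, Actg1 and Cnn2 hold 1 each, and that of Acta2 holds no exact box. A missing match says only that these letters are not in this window. The Acta2 stretch does hold ccctatatgg and ccttgtttgg, which each differ from the pattern by 1 base. Such near matches were not marked or counted in any gene.

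The genotype term called 87 of 14712 genes (0.591%) at an adjusted p under 0.05 (edgeR quasi-likelihood F test, Benjamini-Hochberg over all genes tested). Of these, 38 were lower in dKO (0.258%) and 49 were higher (0.333%). Skeletal alpha-actin (Acta1), smooth muscle alpha-actin (Acta2), the actin-severing protein destrin (Dstn) and Mkl1 were among the lower genes, and beta-myosin heavy chain (Myh7), Lcn2 and Mybpc2 among the higher. The lower genes had a median log2 change of -1.19 and the higher genes of 1.93. All 87 had the same sign after sham and after TAC, which is a description only, because both surgeries enter the term. In 77 of the 87 (0.523% of all genes) the 3 dKO libraries lay on one side of the 3 control libraries in each surgery, 37 lower (0.251%) and 40 higher (0.272%). Such separation on one side in both surgeries, without regard to the test, held for 3.64% of all genes (1.41% lower, 2.22% higher). Genes named below by rule for the lowest or highest changes were drawn only from called genes with such separation. Their lack of overlap within a surgery was therefore fixed by that choice and is a description only.

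These counts depended on single libraries. The count of lower genes moved from 38 to 23 without control sham 1, to 19 without control sham 3, and to 24, 18 and 20 without control TAC 1, 2 and 3. It became 24 without dKO sham 2, 15, 19 and 16 without dKO TAC 1, 2 and 3, and 67 without dKO sham 1. The count of higher genes became 31 without any one of control TAC 1, 2 or 3, 30 without dKO TAC 3 and 78 without dKO sham 1. The count of 77 separated genes became 49 and 50 without control sham 1 and 3, and 49, 44 and 46 without control TAC 1, 2 and 3. It became 137 without dKO sham 1 and 43, 48 and 40 without dKO TAC 1, 2 and 3. In the 12 fits that each left out 1 library, 42 of the 87 genes were called every time, among them Mkl1, Acta1, Dstn, Frmd5, Myh7, Mybpc2, Lcn2 and Fhl3, and 45 lost the call at least once. Leaving out dKO sham 1 and dKO TAC 2 together gave 38 lower and 49 higher genes, of which 21 and 35 were those called with all libraries.

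**Figure D1:**
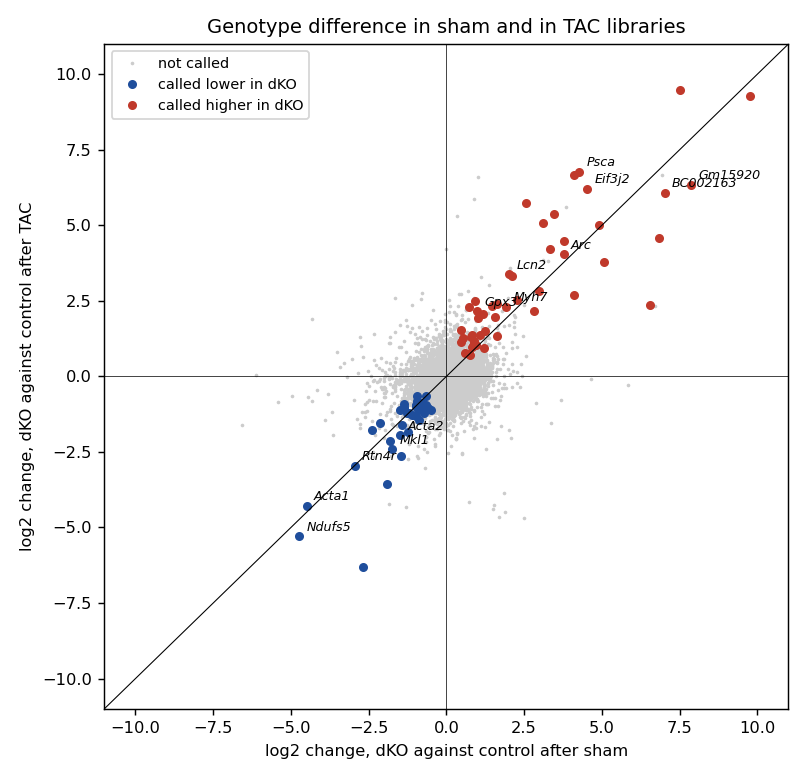
Each point is 1 gene, with the log2 change of dKO against control after sham on the x axis and after TAC on the y axis. Blue and red points are the 38 genes called lower and the 49 called higher by the genotype term, grey points the other genes, and the diagonal marks equal changes; the called genes lie in the lower left and upper right quadrants.

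The targeted genes were examined first. Mkl1 was at 7.59, 11.4 and 8.89 CPM in control sham and 9.32, 16 and 15.6 CPM in control TAC libraries, and at 2.15, 2.88 and 3.20 CPM in dKO sham and 2.50, 2.93 and 2.22 CPM in dKO TAC libraries. Every dKO library was below every control library. The genotype term for Mkl1 (chr15:81012281-81190757, GRCm38) was a log2 change of -2.09 ± 0.21 (SE, edgeR adjusted p = 0.000268). Mkl2 (chr16:13256481-13417529) was at 44.1, 32.6 and 44.1 CPM in control sham and 36.0, 30.1 and 37.0 CPM in control TAC, against 15.2, 26.5 and 23.9 CPM in dKO sham and 28.1, 18.1 and 24.5 CPM in dKO TAC. The dKO libraries again lay below the controls of the same surgery, but the change of -0.71 ± 0.17 did not pass the test (edgeR adjusted p = 0.0847). It passed with DESeq2 (adjusted p = 0.00573) and with the length trend removed (edgeR adjusted p = 0.0354). The sources used here do not give the exons that the alleles remove, so reads from the rest of each gene still count. The exons of Mkl1 overlap those of Sgsm3 on the opposite strand, and Sgsm3 had a log2 change of 0.09 ± 0.12 (edgeR adjusted p = 0.737).

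Srf was at 87.5, 89.6 and 114 CPM in control sham and 105, 98.6 and 80.8 CPM in control TAC, against 85.2, 63.7 and 64.3 CPM in dKO sham and 52.1, 59.6 and 54.4 CPM in dKO TAC. All dKO values were below the controls of the same surgery, in sham by a narrow margin. The change of -0.61 ± 0.13 missed the threshold (edgeR adjusted p = 0.0598), and passed it without dKO sham 1 (edgeR adjusted p = 0.00789). Srf also passed with library totals and no further scaling (0.0488), without both libraries that stood apart (0.0184) and with the length trend removed (0.00576), all adjusted p from edgeR, and with DESeq2 (adjusted p = 0.00131). Myocd, encoding the related coactivator myocardin, had a log2 change of -0.02 ± 0.24 (edgeR adjusted p = 0.968), with a sign that changed between settings. Of the 13 genes in the list of MRTF-SRF machinery, 1 was called lower (Mkl1) and 0 higher, and the list's median log2 change was -0.19 against -0.01 for all genes tested.

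Acta1 had the lowest change of the actin genes. It was at 168, 364 and 158 CPM in control sham and 3155, 3539 and 1658 CPM in control TAC libraries. In dKO it was at 8.97, 8.20 and 13.4 CPM after sham and 63.1, 261 and 107 CPM after TAC. The dKO TAC libraries overlapped the control sham libraries, and no dKO library reached a control library of the same surgery. The log2 change was -4.38 ± 0.39 (edgeR adjusted p = 8.34e-05), with -4.50 after sham and -4.27 after TAC. Acta2 was at 52.0, 93.2 and 54.9 CPM in control sham and 74.8, 145 and 127 CPM in control TAC, against 32.1, 19.8 and 19.4 CPM and 23.0, 51.2 and 15.7 CPM in dKO. Its groups did not overlap within a surgery, and the change was -1.72 ± 0.29 (edgeR adjusted p = 0.0173). The call for Acta2 was lost without control TAC 2 (adjusted p = 0.0540), control TAC 3 (0.0543) or dKO TAC 1 (0.0613). Acta2 also marks smooth muscle cells and is 1 of 14 genes in the list of pericyte and smooth muscle markers, of which it was the 1 called. In that list 11 of 14 members were negative, with a median of -0.31, -0.21 after sham and -0.32 after TAC. The summed level of that list was 3240 to 4660 CPM in control and 3260 to 5600 CPM in dKO libraries. After TAC it was 3680 to 4660 CPM in control and 5060 to 5600 CPM in dKO, against a negative median. A sum is weighted to the most abundant members, so it does not describe most of these markers. The part of smooth muscle cells and pericytes in the change of Acta2 was not tested.

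The other actins pointed the same way without passing the test. Cardiac alpha-actin (Actc1) averaged 9187 and 13068 CPM in control sham and TAC, and 6301 and 6508 CPM in dKO, with a log2 change of -0.77 ± 0.21 (edgeR adjusted p = 0.145). Cytoplasmic gamma-actin (Actg1) had -0.80 ± 0.20 (edgeR adjusted p = 0.104) and cytoplasmic beta-actin (Actb) -0.76 ± 0.21 (edgeR adjusted p = 0.175). Calponin 2 (Cnn2), an actin-binding regulator of contractility, was at 35.8, 51.2 and 37.4 CPM in control sham and 51.3, 84.9 and 67.5 CPM in control TAC. Levels in dKO were 32.1, 23.0 and 28.5 CPM after sham and 20.1, 33.0 and 15.7 CPM after TAC. Its groups did not overlap within a surgery, and the change of -1.07 ± 0.24 did not pass the test (edgeR adjusted p = 0.0682).

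Of the 35 MRTF-SRF cytoskeletal targets listed, all of them measured, 2 were called lower (Acta1 and Acta2) and 0 higher. The shares over all genes were 0.258% and 0.333%. The median log2 change of the list was -0.33 against -0.01 for all genes tested, with 27 members negative and 8 positive. The medians were -0.22 after sham and -0.53 after TAC. Transgelin (Tagln), a calponin family protein, was 0.02 ± 0.34, and zyxin (Zyx), a focal adhesion protein, 0.09 ± 0.16. Among 14 immediate early SRF targets 0 were called, and their median was -0.19.

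Genes that control actin filaments gave 1 call in 36, against a share of 0.591% over all genes. Dstn, which severs and depolymerises actin filaments, was at 91.5, 121 and 112 CPM in control sham and 185, 181 and 165 CPM in control TAC. The dKO libraries held 48.8, 70.1 and 68.6 CPM after sham and 101, 85.6 and 99.3 CPM after TAC. No dKO library reached a control library of the same surgery, and the change was -0.84 ± 0.12 (edgeR adjusted p = 0.00637). Cofilin 1 (Cfl1) and muscle cofilin 2 (Cfl2), relatives of destrin, had changes of 0.01 ± 0.20 and -0.06 ± 0.17. The list median was -0.06.

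Among 30 sarcomere and Z-disc genes, 1 was called lower and 1 higher, against 0.258% and 0.333% of all genes. The list median was 0.31. That median was 0.12 without dKO sham 1 and 0.07 without both libraries that stood apart. Xirp1, an actin-binding repeat protein of the intercalated disc, was at 378, 393 and 539 CPM in control sham and 679, 735 and 714 CPM in control TAC. Its dKO values were 246, 288 and 297 CPM after sham and 458, 383 and 512 CPM after TAC, below the controls of the same surgery. Its change of -0.65 ± 0.13 only just passed (edgeR adjusted p = 0.0482), and leaving out any 1 library other than dKO sham 1 ended the call, with adjusted p between 0.0716 and 0.136. Of the other settings, 8 also ended it (adjusted p = 0.0527 to 0.0784), among them RLE normalization, no further scaling and no filter on low counts. A fit with the replicate number as a block (the replicate block) ended it too. Myh7, the slow myosin that is abundant in the fetal mouse ventricle, was at 95.5, 96.2 and 135 CPM in control sham and 393, 379 and 1599 CPM in control TAC. In dKO it was at 433, 374 and 433 CPM after sham and 4212, 2212 and 5339.8 CPM after TAC. The dKO sham libraries thus lay near the 2 lower control TAC libraries, and groups did not overlap within a surgery. The change was 2.12 ± 0.36 (edgeR adjusted p = 0.0152). Exons of Myh7 overlap the antisense transcript Mhrt. The sources used here do not give the strand setting of the counting. The adult alpha-myosin heavy chain (Myh6) had a change of -0.42 ± 0.23 (edgeR adjusted p = 0.434).

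The list of fetal and hypertrophic genes did not move together. Of 18 members, 1 was called lower (Acta1) and 2 higher (Myh7 and Mybpc2), and the median was 0.23. Mybpc2, the fast skeletal form of myosin-binding protein C, was at 18.6, 20.4 and 19.6 CPM in control sham and 84.0, 88.1 and 65.9 CPM in control TAC. Levels in dKO were 35.2, 29.3 and 31.8 CPM after sham and 118, 123 and 159.8 CPM after TAC. The dKO libraries were the higher ones in each surgery, and the change was 0.74 ± 0.12 (edgeR adjusted p = 0.0111). The natriuretic peptides, standard markers of cardiac stress, did not pass the test of the genotype term. Nppa had a change of 0.62 ± 0.28 (edgeR adjusted p = 0.369) and Nppb of -0.73 ± 0.23 (edgeR adjusted p = 0.249). Nppb was called lower after sham alone, at 272, 264 and 313 CPM in control and 100.5, 99.5 and 127 CPM in dKO libraries. After TAC its groups overlapped, at 597, 880 and 588 CPM in control and 621, 754 and 566 CPM in dKO libraries. Its interaction was called with DESeq2 but not with edgeR.

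**Figure D2:**
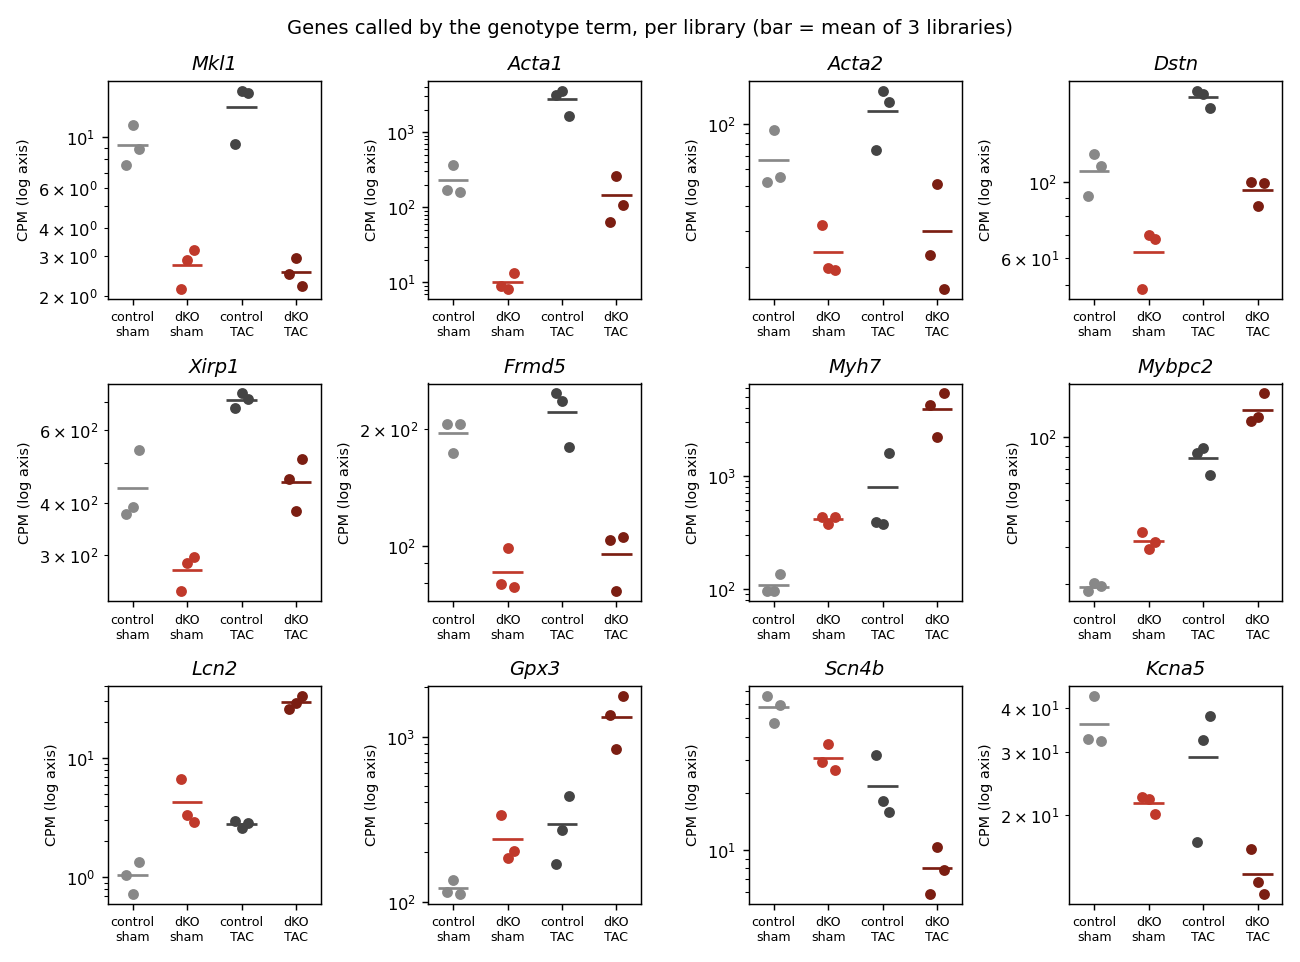
CPM per library on log axes for 12 called genes in the 4 groups; each point is 1 library and each bar the mean of 3. In each panel the dKO points lie on one side of the control points of the same surgery, and Acta1 in dKO TAC overlaps its level in control sham.

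Of 24 potassium, sodium and pacemaker channel genes, 2 were called lower and 0 higher, against 0.258% and 0.333% of all genes. The list median was -0.07. Scn4b, a sodium channel beta subunit, was at 65.9, 47.2 and 59.0 CPM in control sham and 32.0, 18.1 and 15.9 CPM in control TAC. The dKO libraries held 29.4, 36.5 and 26.7 CPM after sham and 5.85, 10.3 and 7.80 CPM after TAC, below the controls of the same surgery. The change was -1.17 ± 0.21 (edgeR adjusted p = 0.0219), and the call was lost without control sham 1 or 3, control TAC 2, or dKO TAC 1 or 3 (adjusted p = 0.05 to 0.0827), or without both libraries that stood apart (0.0559). Kcna5, the channel of the ultrarapid delayed rectifier current, was at 32.7, 43.1 and 32.3 CPM in control sham and 16.8, 32.5 and 37.8 CPM in control TAC. Its dKO values were 22.5, 22.3 and 20.1 CPM after sham and 16.1, 13.0 and 12.1 CPM after TAC. The lowest control TAC library came close to the highest dKO TAC library. The change of -0.91 ± 0.18 (edgeR adjusted p = 0.0446) kept its call only without control TAC 1 or dKO sham 1, and leaving out any other library gave an adjusted p of 0.0670 to 0.136. It was also lost in 6 other settings (adjusted p = 0.0517 to 0.0986), limma-voom and no further scaling among them, and with the replicate block.

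The lists of fatty acid oxidation, oxidative phosphorylation and glycolysis genes gave 1 call between them, against a share of 0.591% over all genes. Cpt1b, which encodes the muscle form of the enzyme that commits fatty acids to mitochondrial import, was the 1 called member of 30 fatty acid oxidation genes (list median -0.14). It was at 7.77, 7.49 and 7.89 CPM in control sham and 9.29, 5.27 and 5.94 CPM in control TAC, against 2.76, 5.18 and 3.65 CPM and 2.94, 3.15 and 4.48 CPM in dKO. The groups did not overlap within a surgery. The change was -0.97 ± 0.20 (edgeR adjusted p = 0.0446), and Cpt1b lies within 10 Mb of Mkl1. The call was lost on leaving out any library other than dKO sham 1 or dKO sham 2 (adjusted p = 0.0591 to 0.131). It was also lost in 5 other settings (0.0527 to 0.0996) and with the replicate block. Of 45 nuclear genes of oxidative phosphorylation 0 were called, although 43 had a positive change, with medians of 0.27 for the genotype term, 0.59 after sham and -0.04 after TAC. The positive median rested on 1 library that stood apart: it was -0.03 without dKO sham 1, -0.08 without both such libraries and 0.09 with the length trend removed. The summed level of the 45 genes was 88517.9 CPM in dKO sham 1, against 38689 and 35860.2 CPM in the other dKO sham and 31698 to 42264.5 CPM in control sham libraries. Of 25 glycolysis genes 0 were called, while 6 were higher in all dKO libraries than in the controls of each surgery (Pfkp, Eno1, Ldha, Gapdh, Tpi1 and Pgk1), a separation held by 2.22% of all genes. The list median of 0.28 became 0.16 without dKO sham 1 and 0.12 without both such libraries. The largest of these was phosphofructokinase Pfkp, which averaged 54.0 and 132 CPM in control sham and TAC and 85.7 and 220.04 CPM in dKO. Its change was 0.70 ± 0.16 (edgeR adjusted p = 0.0860).

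Rtn4r, the Nogo receptor, was at 3.07 to 8.90 CPM in the 6 control libraries and 0.372 to 1.72 CPM in the 6 dKO libraries, with no overlap. Its change was -2.95 ± 0.34 (edgeR adjusted p = 0.000930). Hrasls, a phospholipid-metabolising enzyme, was at 24.0 to 31.2 CPM in control sham and 17.1 to 34.3 CPM in control TAC, against 2.40 to 13.3 CPM and 1.56 to 2.53 CPM in dKO. Its dKO sham libraries were spread widely, without reaching a control, and the change was -2.71 ± 0.41 (edgeR adjusted p = 0.00712). Rtn4r and Hrasls both lie on chromosome 16, as does Mkl2, at 4.80 and 15.9 Mb from it. Nr4a3, an orphan nuclear receptor induced by many stimuli, was at 7.59 to 42.9 CPM in control and 2.64 to 5.08 CPM in dKO libraries. The highest control value came from control TAC 3 alone, and the change was -2.04 ± 0.39 (edgeR adjusted p = 0.0362). It lost the call without control sham 2 or 3, control TAC 2, dKO sham 2, or any 1 dKO TAC library (adjusted p = 0.0538 to 0.122), and also with the filter at a mean of 5 CPM, with limma-voom and without both libraries that stood apart (0.0542 to 0.146).

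Scd4, a stearoyl-CoA desaturase, was at 7.25 to 19.3 CPM in control sham and 5.19 to 8.36 CPM in control TAC, against 4.36 to 5.04 CPM and 2.37 to 3.82 CPM in dKO. Its groups were separate within each surgery, which the naming rule required, and the change was -1.32 ± 0.23 (edgeR adjusted p = 0.0192). That call was lost without control TAC 2, dKO sham 2, dKO TAC 2 or dKO TAC 3 (adjusted p = 0.0551 to 0.0683), or without both libraries that stood apart (0.0796). Grip2, a PDZ scaffold protein, was at 15.1 to 32.8 CPM in control and 6.70 to 9.76 CPM in dKO libraries, a change of -1.24 ± 0.20 (edgeR adjusted p = 0.0121). Slc16a7, a monocarboxylate transporter, was at 6.51 to 8.87 CPM in control sham and 3.42 to 4.38 CPM in control TAC. In dKO it was at 2.09 to 3.67 CPM and 1.64 to 2.13 CPM, and the change was -1.23 ± 0.18 (edgeR adjusted p = 0.00594). The calls for Grip2 and Slc16a7 held in all 12 fits that left out 1 library.

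The naming rule covered 16 of the 38 lower genes, and the other 22 were chosen for mention after their values were seen. Frmd5, a FERM domain protein, had the smallest adjusted p of these 22. It was at 207, 173 and 207 CPM in control sham and 247, 236 and 180.1 CPM in control TAC, against 79.6, 98.7 and 78.0 CPM and 103, 76.3 and 105 CPM in dKO. All dKO libraries were below all control libraries, and the change was -1.21 ± 0.13 (edgeR adjusted p = 0.000641). Sh3kbp1, an endocytic adaptor, was at 81.9 to 121 CPM in control and 41.8 to 66.7 CPM in dKO libraries, a change of -0.92 ± 0.13 (edgeR adjusted p = 0.00386). Ttc38 (-1.20), Osbpl6, an oxysterol-binding protein relative (-1.14), and Plekhh1 (-1.96) were likewise called in all 12 such fits. The others were Lypd2, Gm6652, mt-Tl1, Cd59b, Aldh1l2, Apobec3, Cdh23, Polr2k, Rabl2, Rasgrp2, Dact3, Hspa12a, Sorcs2, Abracl, Anks1, Cd59a and Celsr2. The log2 changes of the 22 ran from -3.30 to -0.79. Rasgrp2 overlapped between genotypes after sham. Polr2k and Gm6652 each belong to a pair of near-identical copies, a case described below. Cd59a and Cd59b encode complement inhibitors that are close relatives of each other, and Cdh23 and Celsr2 encode members of the cadherin superfamily.

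Lcn2, a secreted siderophore-binding protein, was at 1.05, 0.728 and 1.34 CPM in control sham and 3.00, 2.60 and 2.87 CPM in control TAC. Levels in dKO were 6.64, 3.31 and 2.94 CPM after sham and 25.8, 29.1 and 33.2 CPM after TAC. The dKO sham libraries lay within or above the range of the control TAC libraries, and the change was 2.78 ± 0.30 (edgeR adjusted p = 0.000489). Gpx3, the secreted glutathione peroxidase and the 1 called gene of 18 antioxidant genes (list median 0.13), was at 114, 136 and 112 CPM in control sham and 170.2, 273 and 439.9 CPM in control TAC. The dKO libraries held 334, 185 and 204 CPM after sham and 1347, 844 and 1762 CPM after TAC. The groups were separate within a surgery, with a change of 1.58 ± 0.30 (edgeR adjusted p = 0.0362). The call was lost without control sham 1 or 3, any 1 control TAC library or any 1 dKO TAC library (adjusted p = 0.0553 to 0.116). It was also lost with the filter at a mean of 5 CPM, without both libraries that stood apart and with the length trend removed (0.0527 to 0.0794). The replicate block ended it too. Masp1, a serine protease of the lectin pathway of complement, was at 4.84 to 7.51 CPM in control sham and 9.40 to 13.7 CPM in control TAC. Its dKO values were 11.0 to 11.6 CPM and 29.2 to 86.0 CPM, with dKO TAC 2 the lowest of its group. The change was 1.74 ± 0.33 (edgeR adjusted p = 0.0351). It lost the call without control sham 1 or 2, any 1 control TAC library, dKO TAC 1 or dKO TAC 3 (adjusted p = 0.0591 to 0.115), and with the filter at a mean of 5 CPM (0.0527).

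Fhl3, a LIM-domain protein that can bind actin and transcription factors, was at 4.07 to 5.07 CPM in control sham and 5.47 to 9.82 CPM in control TAC, against 8.27 to 13.6 CPM and 13.3 to 15 CPM in dKO. The groups did not overlap within a surgery, which the naming rule required, and the change was 1.06 ± 0.17 (edgeR adjusted p = 0.0121). Irx3, an Iroquois factor of the ventricular conduction system and the 1 called gene of 17 cardiac transcription factors (list median 0.04), was at 9.68 to 19.6 CPM in control and 20.2 to 41.8 CPM in dKO libraries. Its change was 0.90 ± 0.17 (edgeR adjusted p = 0.0332). Annotated exons of Irx3os overlap its exons on the opposite strand. The call for Irx3 was lost without any 1 control sham library, control TAC 2 or 3, or any 1 dKO TAC library (adjusted p = 0.0575 to 0.0915). It was also lost without both libraries that stood apart (0.0535) and with the replicate block. Syt12, a synaptotagmin, was at 2.74 to 4.20 CPM in control sham and 3.23 to 15.1 CPM in control TAC, against 9.42 to 11.0 CPM and 20.9 to 25.8 CPM in dKO. Its change was 1.47 ± 0.28 (edgeR adjusted p = 0.0332). That call held only without control TAC 2 or 3 or dKO sham 1, and was otherwise lost (adjusted p = 0.0532 to 0.0935), as it was without both libraries that stood apart (0.0724). Morn4 was at 1.10 to 2.18 CPM in control and 2.48 to 7.50 CPM in dKO libraries, a change of 1.77 ± 0.27 (edgeR adjusted p = 0.00712).

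Arc and Psca had the largest changes among higher genes with no near-identical copy that the naming rule covered. Arc, a neuronal immediate early gene, was at 1.92, 8.22 and 18.0 CPM in control sham and 2.73, 6.48 and 6.92 CPM in control TAC. In dKO it was at 186, 119.9 and 81.6 CPM after sham and 36.1, 121 and 108 CPM after TAC. Every dKO library was above every control library, and the change was 3.90 ± 0.49 (edgeR adjusted p = 0.00180). Psca, a surface antigen anchored by a lipid, was at 0 to 0.142 CPM in control libraries, about or below the level of 3 counts. Levels in dKO were 3.07, 1.22 and 0.903 CPM after sham and 10.7, 5.27 and 12.5 CPM after TAC. The fitted change of 5.83 ± 0.60 (edgeR adjusted p = 0.000337) depends on the prior count at such levels. Both genes lie on chromosome 15 within 10 Mb of Mkl1.

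Of the 49 higher genes, 12 were covered by the naming rule, 11 others had a near-identical copy, and 26 remained. In this last set, chosen for mention after their values were seen, Etv5, an ETS-family factor, was at 10.3 to 13.5 CPM in control and 18.3 to 36.1 CPM in dKO libraries. Its change was 1.05 ± 0.15 (edgeR adjusted p = 0.00594). Etv5 had no overlap between genotypes, was called in all 12 fits that left out 1 library, and lies within 10 Mb of Mkl2. Ift57, a ciliary transport gene (1.02), Nxpe3 (1.22), 1700025G04Rik (1.0), 2210407C18Rik (2.41) and the gene of histidine breakdown Hal (4.01) were also called in all 12. Hal was at 0 to 0.112 CPM in control libraries, at or below the level of 3 counts, and 0.101 to 0.983 CPM in dKO. The size of its fitted change therefore depends on the prior count. The set also included Ppt1, Arl6, Plscr1, Fstl3, Shisa4, Cp, Nlrc3, Gm17473, Rgs11, Arhgdig, Rimkla, Serpinb1c, Cfap54, Hyi, n-R5-8s1, Gm24270, Muc15 and Gm23935, with log2 changes from 0.70 for Ppt1 to 4.48 for Gm23935. Rgs11 and Arhgdig overlap each other on opposite strands, so their 2 calls may share reads. Muc15, Serpinb1c and n-R5-8s1 were among those not separate between genotypes after sham. Muc15 was at 0 to 0.123 CPM in the sham libraries, below the level of 3 counts. Serpinb1c was at 0.0744 to 0.452 CPM there. Their adjusted p after sham was 0.528 and 0.573 (edgeR), so a difference without load is not shown for them.

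A group of calls concerned near-identical gene copies, for which reads cannot be assigned with certainty. Of the 87 called genes, 13 had a copy in the table with at least 95% identity over at least 50% of the transcript, and 12 of these were higher in dKO. The clearest pair was Ndufs5, a subunit of mitochondrial complex I, and BC002163, which match at 99.4% over 319 nt. Ndufs5 was at 33.0 to 45.9 CPM in control and 0.678 to 3.07 CPM in dKO libraries, a change of -5.01 ± 0.30 (edgeR adjusted p = 1.15e-06). BC002163 was at 0.783 to 1.24 CPM in control and 54.9 to 224 CPM in dKO libraries, a change of 6.55 ± 0.34 (edgeR adjusted p = 5.41e-07). The counts of this pair thus sat on Ndufs5 in every control library and on its copy in every dKO library. With both summed, the level was 33.8 to 46.9 CPM in control and 55.9 to 227 CPM in dKO libraries, and the change was 1.19 ± 0.26 (edgeR adjusted p = 0.0762). The lower count of Ndufs5 therefore cannot be read as a lower level of its RNA.

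The same held in part for other pairs. Eif3j2 and Eif3j1, which encode a translation initiation factor subunit, match at 99.4% over 2379 nt. Eif3j2 was at 0.0712 to 0.514 CPM in control and 5.08 to 12.7 CPM in dKO libraries, a change of 5.21 ± 0.43 (edgeR adjusted p = 4.03e-05), and Eif3j1 had a change of -0.84 (edgeR adjusted p = 0.0985). Their sum had a change of -0.21 ± 0.12 (edgeR adjusted p = 0.451). Gm15920, a copy of Ndufa12 at 99.5% identity, was at 0.142 to 0.642 CPM in control libraries, but ranged in dKO from 0.0677 CPM in dKO TAC 1 to 173 CPM in dKO sham 1. That lowest dKO library was below all 6 control libraries. Gm14085, Gm16399, Gm20305, Gm6472, Gm7993, Gm8615, Gm9260, Gm9855 and Rpl3-ps1 were higher copies of Slc28a2, Cox6c, Polr2k, Rps7, Odc1, Gnpda1, Odc1, Tdg and Rpl3. Gm20305 was listed at 0 in all 6 control libraries. Its parent Polr2k was itself called lower (-0.98 ± 0.20, edgeR adjusted p = 0.0437). Their sum had a change of 0.27 ± 0.21 (edgeR adjusted p = 0.560). The lower count of Polr2k therefore cannot be read as a lower level of its RNA either. When such pairs were summed before the fit, 25 genes were lower and 27 higher, and none of the 12 sums was called. Genes outside the pairs lost the call then too, with nearly unchanged log2 changes. Among them were Xirp1 (-0.65, edgeR adjusted p = 0.0579) and Kcna5 (-0.91, edgeR adjusted p = 0.0547).

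**Figure D3:**
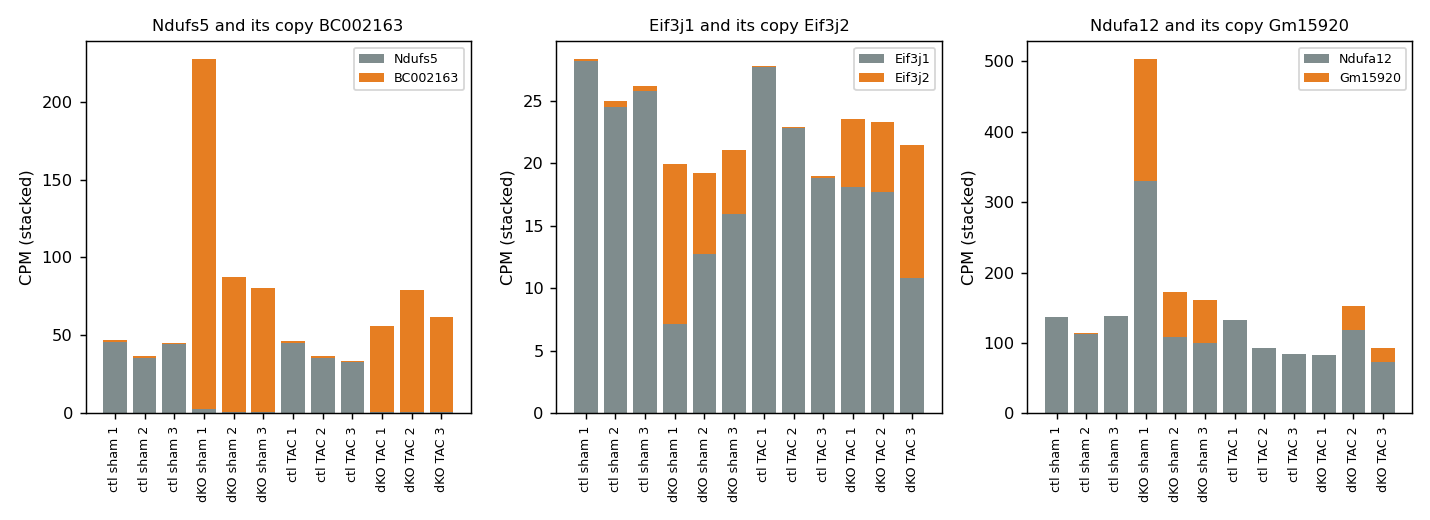
Stacked CPM per library for 3 pairs of near-identical genes, with the parent gene in grey and its copy in orange (ctl, control). The orange part is nearly absent in the 6 control libraries, makes up almost all of the Ndufs5 pair in dKO, and is nearly absent from the Ndufa12 pair in dKO TAC 1.

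The positions of called genes were compared with the loci of the engineered alleles, because dKO and control mice differ there by design. Within 10 Mb (megabases) of Mkl1, 7 of 248 tested genes were called (2.82%; Arc, Psca, Lypd2, Apobec3, Ttc38, Cpt1b and Rabl2). Within 5 Mb it was 2 of 178 (1.12%). Arc, Psca and Lypd2 all begin at 74.7 Mb of chromosome 15, and Cpt1b and Rabl2 at 89.4 and 89.6 Mb. These shares thus count close neighbours singly. Within 10 Mb of Mkl2, 5 of 173 were called (2.89%; among them Nlrc3, Gm23935, Rtn4r and Etv5), and within 5 Mb 3 of 85 (3.53%). Over all genes the share was 0.591%. On whole chromosomes it was 10 of 557 (1.80%) for chromosome 15 and 11 of 437 (2.52%) for chromosome 16. Chromosomes 10 and 19, which carry neither gene, held 9 of 690 (1.30%) and 6 of 489 (1.23%). A stretch of chromosome 4 from Hyi to Fhl3, picked after the calls were seen, held 5 called of 48 tested genes (10.4%). Leaving out near-identical pairs and all genes within 10 Mb of either locus left 59 called genes, 28 lower and 31 higher. In 54 of these, 27 lower and 27 higher, the genotypes were separate in both surgeries. They include Acta1, Acta2, Dstn, Myh7, Mybpc2, Lcn2 and Frmd5. They also include Masp1, Hrasls, Ift57, Nxpe3 and Arl6, at 10.1 to 46.3 Mb from Mkl2 on chromosome 16. Hyi, Rimkla, Ppt1 and Fhl3 of the chromosome 4 stretch are among them too. Frmd5 begins at base 121545529 of chromosome 2, and the higher copy Gm14085 at base 122484941. A link of the 54 genes to strain background was not tested.

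**Figure D4:**
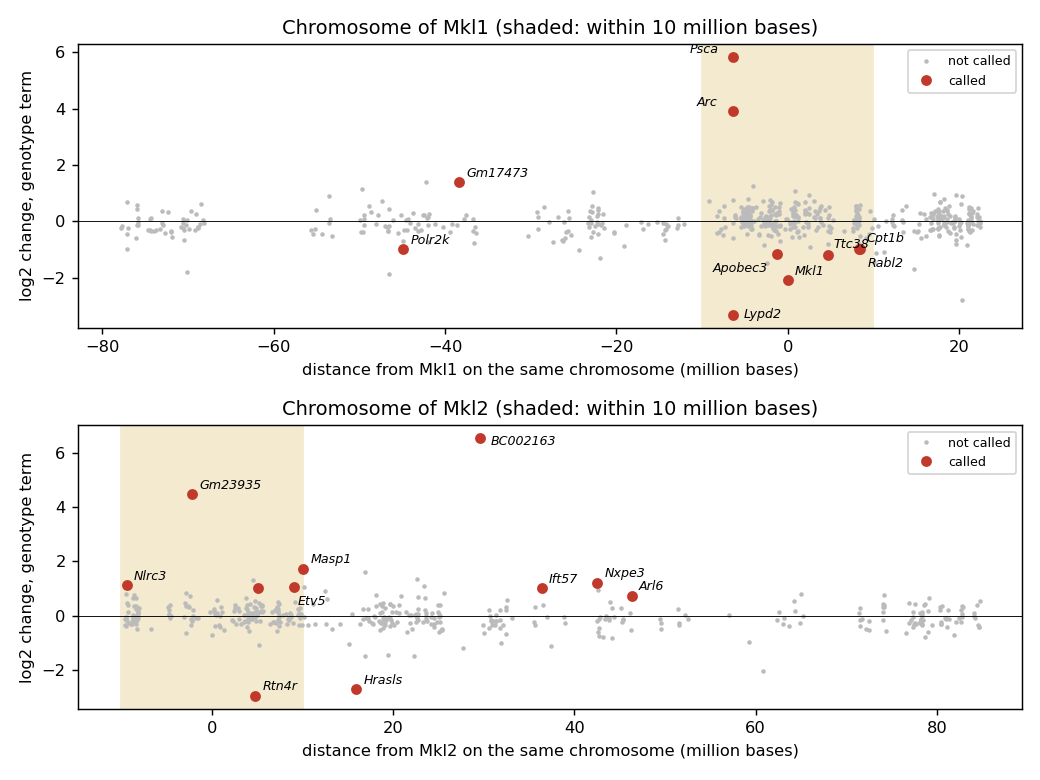
Log2 change of the genotype term against distance from Mkl1 (top) and Mkl2 (bottom) in Mb along their chromosomes, with called genes in red, most of them labelled, and a window of 10 Mb shaded. The shaded windows hold 7 called genes around Mkl1, next to Mkl1 itself, and 5 around Mkl2.

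Of 5 tested markers of blood cells, 1 was called lower and 0 higher. These 5 (Hba-a1, Hba-a2, Hbb-bs, Hbb-bt and Alas2) were lower in every dKO library than in the controls of the same surgery, with a median change of -2.14. Such separation, lower in both surgeries, held for 1.41% of all genes. The summed level of the 11 listed markers was 25.9 to 94.0 CPM in control and 3.01 to 17.8 CPM in dKO libraries. Alas2, the erythroid enzyme of heme synthesis, was the member called, at 1.10 to 3.85 CPM in control and 0.0614 to 0.979 CPM in dKO libraries. Its change was -2.09 ± 0.42 (edgeR adjusted p = 0.0461). Leaving out any library other than dKO sham 1 or dKO sham 3 ended the call (adjusted p = 0.0553 to 0.130). It was also lost in 5 other settings (0.0551 to 0.0672) and with the replicate block. The summed blood markers and Alas2 moved together, and the part of blood cells in this result was not tested.

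Over all genes, 0.258% were called lower and 0.333% higher, which is the background for the count of each list. Of the 36 gene lists, 25 had no called member, and their medians ran from -0.38 to 0.28. They included 22 calcium handling genes (median -0.02), 16 genes of the intercalated disc (0.08), 29 of the costamere and dystrophin complex (0.02), 16 YAP-TEAD genes (-0.14) and 32 extracellular matrix genes (-0.23). In the matrix list 27 members were negative, with medians of -0.07 after sham and -0.35 after TAC. The lists of fibroblast (-0.12), endothelial (-0.15) and macrophage (-0.02) markers gave 0 calls.

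**Figure D5:**
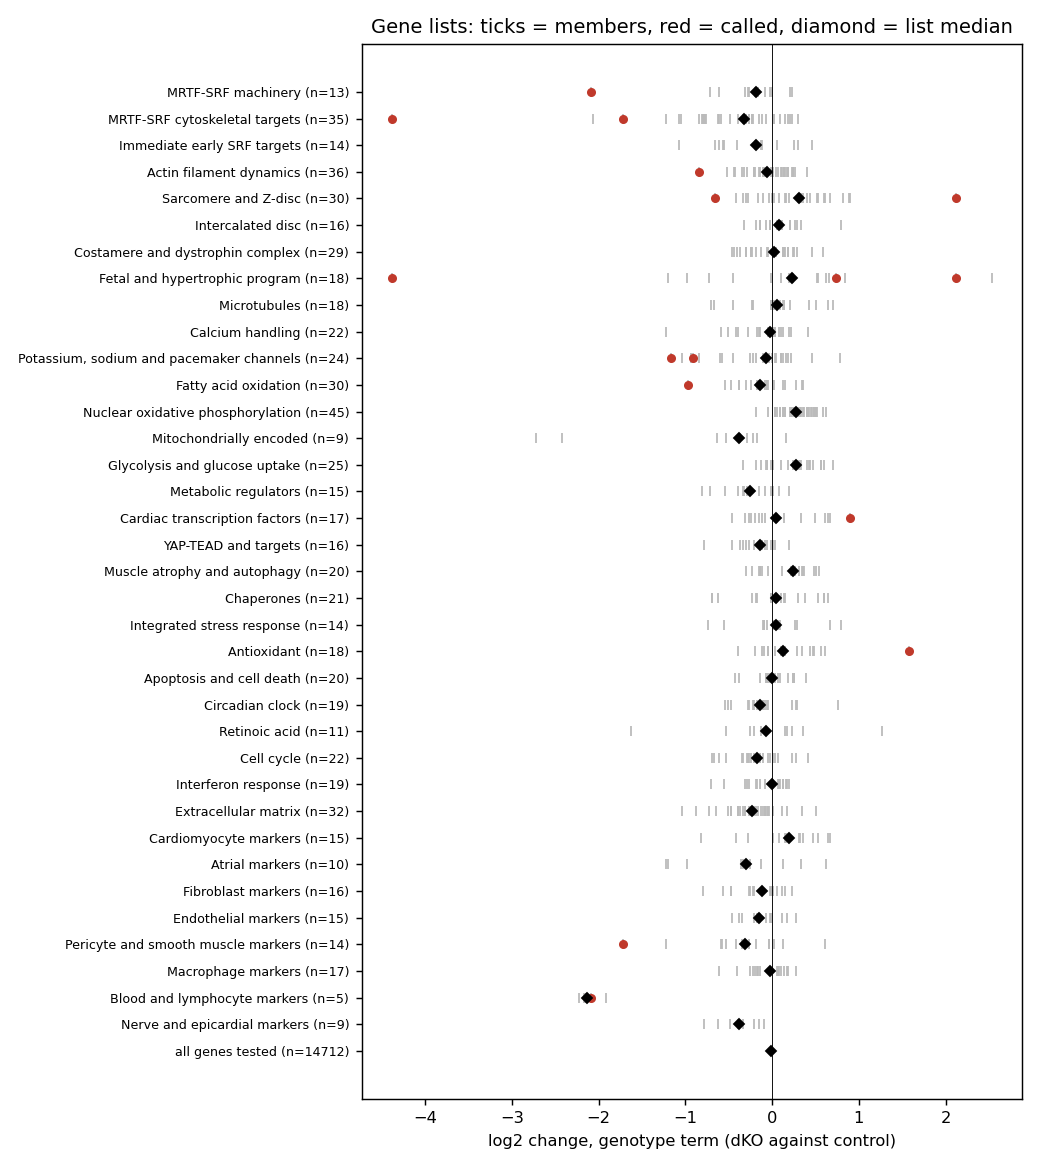
Log2 change of the genotype term for each measured member of 36 gene lists (ticks), with called members in red and list medians as diamonds; the bottom line is the median of all 14712 genes. Most medians lie close to 0, the MRTF-SRF cytoskeletal targets have a median of -0.33, and the 5 tested blood markers lie at about -2.

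The shared term was then set beside each surgery alone. After sham, 10 genes were called (0.068%), 4 lower (0.0272%) and 6 higher (0.0408%), in a fit with 1 mean per group (edgeR). After TAC it was 63 (0.428%), 18 lower (0.122%) and 45 higher (0.306%). Of the 18 lower after TAC, 17 had the same sign after sham and 12 were separate there, against 9.42% of all genes separate and lower after sham. Of the 45 higher after TAC, 42 had the same sign after sham and 23 were separate there, against 9.27% of all genes. These 45 include 10 genes of near-identical pairs, and the 18 lower include 1 (Ndufs5). Of the 10, BC002163, Eif3j2, Gm14085, Gm16399, Gm20305, Rpl3-ps1 and Gm8615 were among those separate after sham. Of the 4 lower after sham, 3 were separate and 3 called after TAC, and of the 6 higher all 6 were, against 7.79% lower and 9.8% higher of all genes separate after TAC. The 4 lower were Acta1, Mkl1, Nppb and Ndufs5, and the 6 higher (BC002163, Eif3j2, Gm14085, Gm16399, Gm20305 and Rpl3-ps1) all have a near-identical copy. With such copies summed, the sham count was 0. Acta1, Mkl1 and Nppb lie outside the pairs, so summing did not alter their own counts. An adjusted p also depends on the p-values of all other genes. This 0 therefore does not tie their sham differences to copies. Of the 87 genes of the shared term, 53 were called in neither surgery alone. Across all genes the log2 changes after sham and after TAC, which come from different libraries, had a Pearson r of 0.36; genes are not independent replicates. The counts changed with single libraries. After sham the count became 6 without any 1 control sham library and 5 without dKO sham 2. After TAC it became 26 and 31 without control sham 1 and 3, 16, 23 and 28 without control TAC 1, 2 and 3, and 33 without dKO sham 2. It became 11 and 8 without dKO TAC 1 and 3, and 252 without dKO sham 1.

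The interaction asked whether the genotype difference itself differed between surgeries. It called 0 of 14712 genes (0.0%) with edgeR, 0 with limma-voom and 11 with DESeq2, and 697 genes (4.74%) had an unadjusted p under 0.05. The smallest edgeR adjusted p was 0.515, and without dKO TAC 2 it called 1 gene. In simulated data of the same size, the interaction test recovered 1% of genes with a 2-fold difference and 47% with a 4-fold difference. These shares describe the simulated counts, and recovery in these libraries may differ. Without both libraries that stood apart, 2094 genes had an unadjusted p under 0.05 (edgeR). The count of 0 therefore does not show that interactions were absent. The absolute change was larger after TAC in 62 of the 87 genes. Among the lower genes the medians were -1.16 after sham and -1.17 after TAC, and among the higher genes 1.63 and 2.32. Of the 87, 11 (12.6%) had an unadjusted interaction p under 0.05, among them Lcn2 (2.02 after sham, 3.38 after TAC), Gpx3 (1.0 and 2.16), Masp1 (0.92 and 2.51) and Hrasls (-1.90 and -3.58). None of these passed adjustment.

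Promoter windows were searched for 2 motifs in all genes matched to RefSeq, 11065 of those tested, from 250 bases before the start to 50 bases after it. An exact CArG box lay in 177 of these (1.60%), in 1 of 29 called lower genes with a window (3.45%, Acta1) and in 0 of 23 called higher genes. It lay in 10 of 31 MRTF-SRF cytoskeletal targets (32.3%), which were listed as known targets. In the Acta1 stretch shown above the box begins 73 bases before the start. The motif CATTCC, which TEAD factors bind, was searched on both strands and can share only its CC or GG end with a CArG box. It lay in 14.7% of all windows, in 9 of 29 called lower genes (31.0%) and in 3 of 23 called higher genes (13.0%). These shares describe the windows and were not tested.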

How the data were processed

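The deposited table holds raw whole-number read counts per gene for the 12 libraries, made by the authors with Trimmomatic 0.36, STAR 2.5.2b and featureCounts of Subread 1.5.0p3 on GRCm38.p5, per the submitters' processing notes. Per the labels' protocols, hearts were digested by Langendorff perfusion, cardiomyocytes were enriched by sedimentation for 10 min at 37 °C, and stranded poly(A) libraries from 200 ng RNA were read as single ends of 100 nt. The sources used here give neither the annotation, the strand setting nor the handling of reads with several matches.

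Counts were fitted in edgeR 4.0.16 under R 4.3.3 and tested by its quasi-likelihood F test, with TMM scaling and the filterByExpr rule by group. The model was genotype plus surgery with 9 residual degrees of freedom. A fit of 4 group means (8 residual degrees of freedom) gave each surgery and the interaction. A gene was called at a p under 0.05 after Benjamini-Hochberg adjustment, and an SE is the log2 change divided by the root of its F. No pair of libraries within a group was a duplicate (lowest chi-square per degree of freedom 16.1). Coordinates, biotypes and transcripts came from GENCODE mouse release 21 (GRCm38), which matched 14562 tested genes. Near-identical copies were found with blastn 2.17.0 (at least 95% identity, 100 nt and 50% covered). Simulated counts with known changes were fitted first: the genotype term recovered 54% of 2-fold and 95% of 4-fold changes, with 5 false calls among 14542 genes.

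The members and gene lists were chosen with earlier results of these data known. Genes named by rule were Mkl1, Mkl2, Myocd and Srf, the 10 called genes with the lowest and the 10 with the highest change (at least 5 CPM in the higher genotype, separate in both surgeries, no predicted genes, pseudogenes or small RNAs), and up to 3 called members of each list. Alternatives were other scalings and filters, DESeq2 1.42.0, limma-voom (limma 3.58.1), a replicate block, fits without single libraries, and removal of the length trend. Summing near-identical copies was added after the data were seen. Some called genes are not reported here.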

Additional observations from a re-analysis of the deposited data

How the results depend on the processing

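With all libraries 38 genes were lower and 49 higher. The counts were 69 and 78 with no filter on low counts, 15 and 19 with a stricter filter (mean of 5 CPM or more), 139 and 208 with DESeq2, and 25 and 27 with near-identical copies summed. With library totals and no scaling they were 26 and 62, 29.5% lower against 43.7%. Leaving out 1 library gave 15 to 67 lower and 30 to 78 higher genes. The sham count of 10 became 53 with no filter, 3 with the stricter filter, 62 with DESeq2 and 0 with copies summed, and 5 to 12 without 1 library. The TAC count of 63 became 129, 33 and 320 under the first 3 of these, 117 with the length trend removed and 508 without both libraries that stood apart, and 8 to 252 without 1 library. The interaction count of 0 became 5 with no filter, 11 with DESeq2, 1 with the length trend removed, 2 without both such libraries, and 0 to 1 without 1 library. The 77 genes separate in both surgeries became 32 with the stricter filter, 233 with DESeq2, 49 with copies summed, and 40 to 137 without 1 library. The cause of these shifts was not tested.

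Of 737 recomputed log2 changes of named genes, 9 had the other sign. For Ndufs5 it was 1 value, 1.19 with its copy summed, because the sum takes in BC002163. For Myocd, called in no setting, it was 8 of 24 values, and its changes lay between -0.13 and 0.28. Calls of named genes were lost under settings other than a left-out library as follows. Xirp1, Kcna5, Cpt1b and Alas2 lost theirs with no scaling, with copies summed and in the average over 4 group means, and Xirp1 also with RLE normalization, no filter and mitochondrially encoded genes left out. The stricter filter ended those of Nr4a3, Masp1, Gpx3, Xirp1, Kcna5 and Cpt1b, limma-voom those of Nr4a3, Kcna5 and Alas2, and the removed length trend that of Gpx3. Without both libraries that stood apart, Nr4a3, Scd4, Gpx3, Syt12, Xirp1, Scn4b, Kcna5, Cpt1b, Irx3 and Alas2 were not called. Same-numbered libraries had correlations of -0.661 to 0.51. Libraries with different numbers were not compared, so these values cannot decide whether the numbers pair the samples. A fit with the replicate block gave 25 lower, 38 higher, 41 after TAC and 0 for the interaction, and Gpx3, Xirp1, Kcna5, Cpt1b, Irx3 and Alas2 were not called in it. Depth limited genes near 3 counts, such as Psca in controls.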
